A study of Mus musculus with 30 samples.

Results

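Cytosolic ribosomal protein genes encode the proteins that, with the ribosomal RNAs, build the large and the small subunit of the ribosome outside the mitochondria. They were taken here as the genes whose symbol has the RPL, RPLP, RPS or RPSA form, without the RPS6K kinases, and whose mean level over all mice lay above 3 RPKM (reads scaled to the length of the transcript and to the mapped reads of the sample). Of 21073 genes measured, 86 symbols had that form and 74 of them passed the floor, 41 of the large and 33 of the small subunit. The floor itself was passed by 8444 genes.

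The RNA came from the extensor digitorum longus (EDL), a fast hindlimb muscle, of female wild type SJL mice. On each of 2 days there were 3 groups of 5 mice: unimmunized mice (Ctrl), mice given ovalbumin in complete Freund's adjuvant (OVA), and mice given the PLP139-151 peptide of myelin proteolipid protein in the same adjuvant (EAE, experimental autoimmune encephalomyelitis, an autoimmune disease of the central nervous system used as a model of multiple sclerosis). Day 14 after immunization was the peak of disease and day 40 the chronic remission phase. The authors report that most EAE mice had no physical disability in remission. The OVA mice share the adjuvant with the EAE mice and lack the myelin antigen, so EAE against OVA bears on the disease and OVA against Ctrl on the adjuvant. The age of the mice is not given in the labels. Different mice were killed on the 2 days, and day, age and any handling of the 2 sets cannot be told apart.

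Estimated depth, worked out from the steps between low values and rounded to 3 digits, ran from 18100000 to 31700000 reads per mouse (median 21600000), and no pair of mice had identical values. In all 30 mice the defining markers of muscle fibres (ACTA1, CKM, MYLPF, TNNT3, PVALB, ATP2A1) were present, with a summed level of 52736 to 65055 RPKM in the EAE mice of day 14 against 73487 to 97289 RPKM in the Ctrl mice of that day. Neutrophil markers summed to 212 to 398 RPKM in EAE, 64.6 to 215 RPKM in OVA and 3.39 to 7.71 RPKM in Ctrl on day 14. Fibroblast markers summed to 268 to 428 RPKM in EAE against 697 to 1279 RPKM in Ctrl on that day, and macrophage markers to 61.9 to 107 against 114 to 177 RPKM. Erythrocyte markers, of which 4 of 5 are in the table, summed to 26.4 to 188 RPKM in EAE, 189 to 684 RPKM in Ctrl and 475 to 1585 RPKM in OVA on day 14, and 5 of 6 lymphocyte markers were under 1 RPKM in every group. The part of these shifts in the results below was not tested. In whole muscle, fewer cells of a type and less RNA per cell cannot be told apart.

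The ribosome is made in the nucleolus from equal numbers of nearly every one of these proteins, and their mRNAs are among the most abundant short mRNAs of a cell. Most of them start with a C followed by a run of pyrimidines, the terminal oligopyrimidine (TOP) motif, through which the kinase complex mTORC1 and the RNA binding protein LARP1 set their translation and stability together. In skeletal muscle ribosome number goes up with growth and down with disuse and wasting. Striated muscle also has a paralogue of its own, RPL3L, which takes the place of RPL3 in the ribosomes of mature fibres.

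The starts of 7 genes are shown because they span the family's range, from a start inside a pyrimidine run to a start outside any, and because 5 of them (RPL4, RPL19, RPS27L, RPL3L, RPL32L) carry day 14 differences described below. Each line gives 15 bases before and 15 from the annotated start, read from RefSeq's promoter sequences (build GRCm38.p6) in the direction of the gene, with the longest run of pyrimidines in capitals.
RPS6, chr4:86857353-86857382, minus strand: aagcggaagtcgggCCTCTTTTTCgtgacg
RPL19, chr11:98026909-98026938, plus strand: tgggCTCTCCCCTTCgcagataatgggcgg
RPL4, chr9:64173372-64173401, plus strand: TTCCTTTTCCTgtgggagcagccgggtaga
RPS27, chr3:90213634-90213663, minus strand: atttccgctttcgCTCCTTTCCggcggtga
RPS27L, chr9:66946071-66946100, plus strand: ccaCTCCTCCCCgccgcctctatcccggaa
RPL3L, chr17:24727811-24727840, plus strand: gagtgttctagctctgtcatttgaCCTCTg
RPL32L, chr10:20208424-20208453, plus strand: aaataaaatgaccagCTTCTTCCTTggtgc
RPS6 and RPS27 start within a run of pyrimidines, and the run of RPL32L begins at its start. RPL4, RPL19 and RPS27L have a long run that ends before the annotated start, and RPL3L has only a short run after it. RPL19, RPS27L and RPL3L each have a second annotated start, not shown, without a run of 8 or more pyrimidines nearby. The reference held a promoter for 56 of the 74 genes, and a gene was counted if any of its annotated starts met the criterion. Of these, 26 (46.4%) had a run of 8 or more pyrimidines (C or T) within 20 bases either side of the start. Runs were read on the strand of the gene. Among the 6783 genes above the floor with a promoter in the reference the share was 19.2%. The stricter form, a C at the annotated start followed by 4 pyrimidines, was met by 13 of 56 (23.2%), by 3.01% of those genes and by 0 of 68 mitochondrial ribosomal protein genes. These matches describe the letters at an annotated position, which may differ from the base used in muscle.

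Mean levels over the 30 mice ran from 3.20 to 521 RPKM with a median of 19.7 RPKM, although most of the products are needed in equal numbers. The highest were RPLP1 (521 RPKM), one of the acidic proteins of the stalk that recruits elongation factors, RPS15 (462 RPKM) and RPL8 (443 RPKM). RPL4, which lines the tunnel of the nascent peptide, reached 409 RPKM and RPL41, the shortest protein of the ribosome, 352 RPKM. The muscle paralogue RPL3L stood at 309 RPKM. Just inside the floor were RPS4L (3.20 RPKM), RPL5 (3.71 RPKM), RPS2 (3.80 RPKM) and RPS13 (3.85 RPKM). Just outside were RPL9 (2.94 RPKM), RPL34 (2.88 RPKM) and RPL30 (2.83 RPKM). The 12 symbols at or under the floor also held RPL3 (1.93 RPKM), RPL35A (1.83 RPKM), RPL31 (1.39 RPKM), RPL29 (1.06 RPKM), RPL13 (0.756 RPKM), RPL21 (0.714 RPKM), RPL39 (0.0725 RPKM), RPL39L (0.0662 RPKM) and RPL10L (0.00930 RPKM). Most of these encode obligatory parts of the large subunit, so a level near 0 cannot be read as the absence of the mRNA.

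Mammalian genomes hold many processed pseudogenes of ribosomal protein genes, and a read that matches several loci can be lost or assigned elsewhere. How such reads were handled is not given in the sources used here. Every 100-base stretch of each transcript was therefore looked up in the transcripts of all other annotated genes. Of the 74 genes, 66 shared at least one stretch with another gene and 64 with a pseudogene, against 8 that shared none. The 20 genes that shared under 20% of their stretches had a median level of 161 RPKM, the 28 that shared 20% to 50% a median of 19.7 RPKM, and the 26 that shared 50% or more a median of 9.83 RPKM, with none of the last above 90.4 RPKM. Of the 20 genes above 100 RPKM, 13 shared under 20% and 0 shared 50% or more. Of the 22 genes below 10 RPKM, 2 shared under 20% and 13 shared 50% or more. Across the 74 genes, which share libraries and sequence ancestry, Spearman's rho between the shared percentage and the level was -0.58, while that between transcript length and level was 0.08. RPL3 shared 79.4% of its stretches with other genes, among them 7 pseudogenes, and RPS27 shared 98.4%. RPL3L shared 0% and RPL4 shared 5.14%. The 12 symbols at or under the floor, which the rho leaves out, did not all share much. RPL39 shared 1.75%, RPL21 16.7%, and RPL39L and RPL10L 0%, whereas the others ran from 29.4% (RPL31) to 87.0% (RPL9). A ratio of levels between members, such as RPL3L over RPL3, therefore compares genes that could be counted to different extents.

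**Figure D1:**
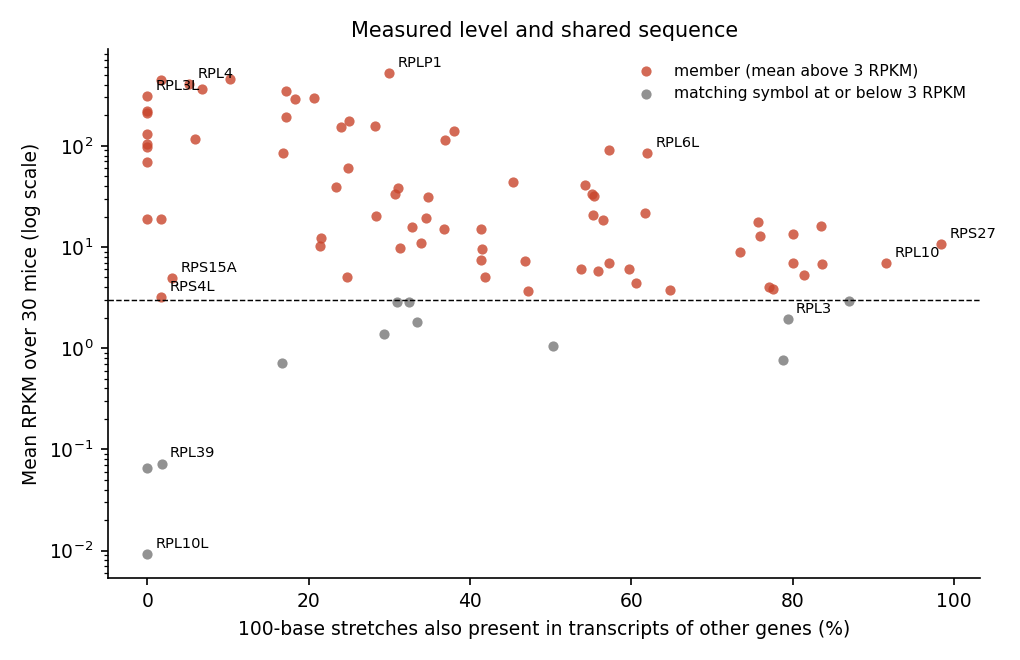
Mean level over the 30 mice in RPKM (vertical log axis) of the cytosolic ribosomal protein genes against the percentage of their 100-base stretches that also occur in transcripts of other genes (horizontal axis), 1 point per gene. Genes that share 50% or more reach no higher than 90.4 RPKM, and 13 of the 20 genes above 100 RPKM share under 20%.

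The family as a whole was described by its mean level, the mean of log2(RPKM + 0.1) over the 74 genes in each mouse. On day 14 this was 5.54, 5.11, 5.07, 5.26 and 4.67 in the Ctrl mice, 5.75, 4.48, 4.59, 4.72 and 5.33 in the OVA mice, and 5.96, 5.17, 5.28, 5.15 and 5.47 in the EAE mice. The 3 groups overlapped. The mouse numbered 1 was the highest of its group in each of the 3. On day 40 the mean level was 4.11, 4.33, 4.09, 4.67 and 4.50 in Ctrl, 4.47, 4.37, 4.30, 4.18 and 4.33 in OVA, and 4.59, 4.18, 4.62, 4.47 and 4.42 in EAE, again with overlap of all 3. The lowest day 14 mouse in Ctrl (4.67) equalled the highest day 40 mouse of that group at 2 decimals, whereas the day 14 and day 40 EAE mice were well apart. As a share of all RPKM, the family took 1.55% to 2.39% in the EAE mice of day 14, 1.08% to 1.51% in Ctrl, 1.04% to 1.66% in OVA and 0.896% to 1.17% in the 15 mice of day 40.

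**Figure D2:**
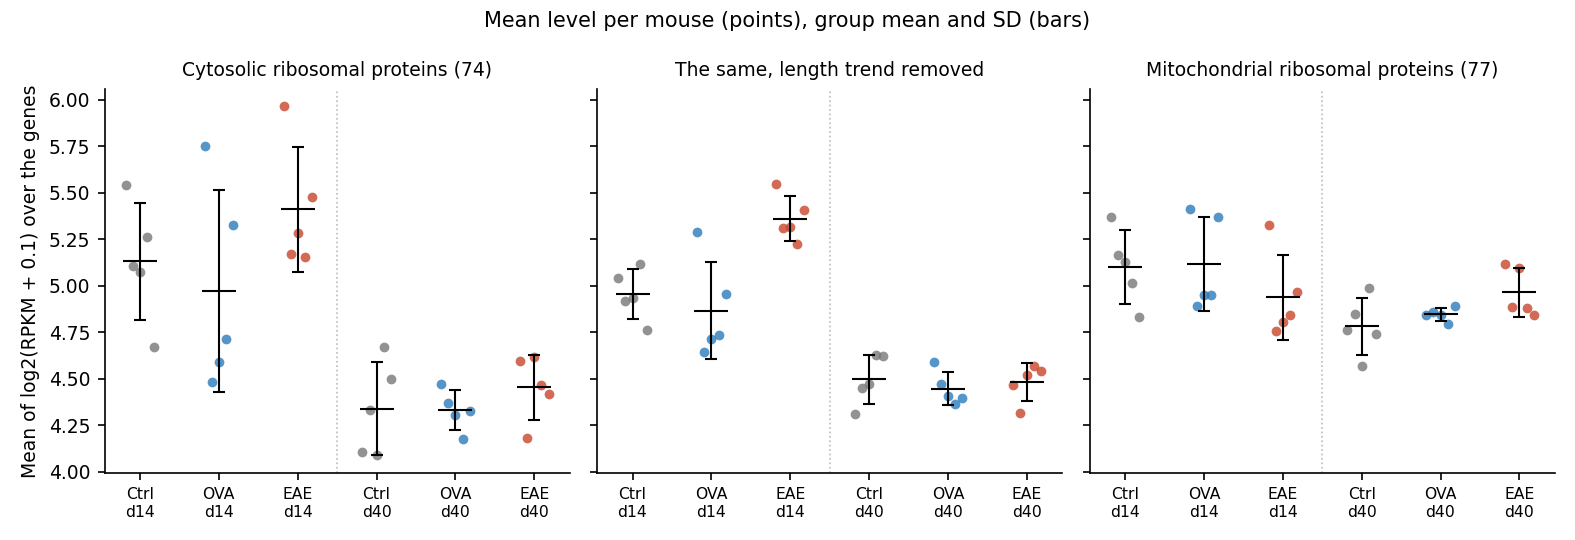
Mean log2(RPKM + 0.1) in each of the 30 mice by group, for the cytosolic ribosomal protein genes, for the same genes after the trend of all genes on transcript length was removed in each mouse, and for the mitochondrial ribosomal protein genes. The day 14 EAE mice range from 5.15 to 5.96 as measured and from 5.22 to 5.55 after the trend is removed.

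The spread between mice of a group was wide and shared among the genes. The within-group SD of log2(RPKM + 0.1), pooled over the 6 groups, had a median of 0.36 over the 74 genes, against 0.20 over all other genes above the floor and 0.21 over the mitochondrial ribosomal protein genes. It was 0.44 on day 14 and 0.23 on day 40. The SD was larger on day 14 in 73 of the 74 genes (98.6%), against 87.4% of other genes. The largest SDs belonged to RPS28 (0.86), RPS29 (0.76) and RPS18 (0.66), small subunit genes, of which RPS28 and RPS29 encode very short proteins. The smallest belonged to RPL7L1 (0.10), a paralogue of RPL7, then RPL4 (0.15) and RPS4X (0.17). Genes that shared under 20% of their sequence had a median SD of 0.28, those in the middle class 0.38 and those that shared 50% or more 0.41. These classes also differed in estimated reads per gene, with medians of 2831, 443 and 116. RPS28, RPS29 and RPS18 had 41.6, 23.4 and 64.9 estimated reads in the median mouse. The part of low read numbers in these SDs was not tested.

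The genes rose and fell together from mouse to mouse within a group. After the group means were taken out, the first principal component held 73.2% of the variance of the 74 genes, and the mean correlation of a pair of genes over the 30 mice was 0.69. RPLP1 shows the shape, with 874, 560, 563, 536 and 432 RPKM in the Ctrl mice of day 14 and 833, 447, 416, 432 and 675 RPKM in the OVA mice. Its EAE values were 1060, 561, 533, 575 and 649 RPKM, so mouse 1 stood apart in Ctrl and EAE and was the highest in OVA. RPS29 varied more, with 21.9, 7.05, 7.76, 9.05 and 4.36 RPKM in Ctrl. RPL7L1 varied least, with 18.7, 20.0, 18.8, 17.2 and 15.8 RPKM in the same mice. The mitochondrial ribosomal protein genes shared their variation to a like degree, with 76.0% on the first component and a mean pair correlation of 0.64. Other nuclear genes with transcripts under 500 bases had 51.6% on the first component and 0.46.

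Transcript length ran with this spread. Transcripts of the 74 genes had a median of 831.5 bases (345 to 5179), with 52 of 74 (70.3%) under 1000 bases, against a median of 2602.5 bases and 8.81% under 1000 bases among the other genes above the floor. The longest model was that of RPS15A (5179 bases), and its 4.91 RPKM is a level per that length. When a smooth trend of all genes' values on transcript length was taken out in each mouse, the median within-group SD of the 74 genes fell from 0.36 to 0.23, and that of the other genes under 500 bases from 0.32 to 0.20. The SD of the family's mean level between mice fell from 0.41 to 0.18 on day 14 and from 0.19 to 0.11 on day 40. The first component then held 46.1%, against 61.2% for the mitochondrial set and 31.8% for the other short genes. The mean pair correlation was then 0.33, against 0.19 for the mitochondrial set and 0.07 for the other short genes. What sets the trend on length in each mouse was not tested.

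On day 14, EAE against Ctrl, 9 of the 74 genes rose and 2 fell by the test across all genes (limma, Benjamini-Hochberg adjusted p under 0.05 and a change over 1.5-fold). Over all 8771 genes tested, 14.6% rose and 11.8% fell, so the members' 12.2% higher was near the background and their 2.7% lower was below it. The direction was more uniform than the calls. The log2 fold change was positive in 67 of 74 genes (90.5%) against 58.9% of all genes, and its median was 0.29 against 0.11. The genes rise and fall together from mouse to mouse, so their signs, here and below, are not separate observations. By adjusted p alone 13 were higher and 2 lower, where 28.8% and 19.0% of all genes were. Large and small subunit genes had medians of 0.30 and 0.25. The groups did not overlap for 8 genes that were higher (21.2% of all genes) and 2 that were lower (11.0% of all genes).

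RPL3L, the striated muscle paralogue of RPL3, had the largest fall of the family. It stood at 352, 346, 343, 354 and 314 RPKM in Ctrl, 379, 346, 318, 320 and 363 RPKM in OVA, and 141, 106, 215, 177 and 150 RPKM in EAE on day 14. Every EAE mouse lay below every other mouse of that day. The log2 fold change was -1.15 ± 0.15 (SE) against Ctrl (limma adjusted p 2.22e-05) and -1.16 ± 0.15 against OVA (adjusted p 2.39e-05). On day 40 the EAE mice had 365, 343, 376, 363 and 336 RPKM, within or above the range of the other day 40 mice. The change of the EAE to Ctrl difference between the days was 1.33 on the log2 scale (adjusted p 4.58e-07). RPL3 was under the floor and is given as values only, with 2.26, 1.79, 1.43, 2.73 and 1.49 RPKM in Ctrl and 5.24, 3.46, 2.98, 2.09 and 3.37 RPKM in EAE on day 14. Its groups overlapped, and it passed the filter on low values only through the EAE mice.

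RPS4L, a second member that fell, is typed as a pseudogene related to RPS4X and lies at the floor. Its levels on day 14 were 5.35, 4.45, 3.65, 3.32 and 4.31 RPKM in Ctrl, 2.91, 3.23, 3.04, 3.66 and 3.74 RPKM in OVA, and 2.78, 1.06, 3.14, 2.72 and 1.59 RPKM in EAE. EAE did not overlap Ctrl and overlapped OVA. The log2 fold change was -0.95 ± 0.24 against Ctrl (limma adjusted p 0.00411) and -0.63 against OVA (adjusted p 0.0460), and the second call was lost in 7 of the 10 fits that each left out 1 EAE or OVA mouse. Its parent RPS4X, a protein of the small subunit, went the other way, with a log2 fold change of 0.44 ± 0.12 (adjusted p 0.00683), short of 1.5-fold.

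Among those that rose, RPL4 had the narrowest error. It measured 287, 364, 357, 393 and 336 RPKM in Ctrl, 419, 351, 321, 348 and 390 RPKM in OVA, and 773, 632, 511, 573 and 646 RPKM in EAE on day 14. The EAE mice did not overlap either group. The log2 fold change was 0.84 ± 0.12 against Ctrl (limma adjusted p 8.12e-05) and 0.77 ± 0.12 against OVA (adjusted p 0.000212). RPL7, a large subunit protein, had 132, 153, 155, 159 and 137 RPKM in Ctrl and 301, 209, 177, 194 and 227 RPKM in EAE, again with no overlap, and OVA mice had 208, 150, 132, 142 and 181 RPKM, with mice 1 and 5 inside the EAE range. Its log2 fold change was 0.57 ± 0.15 against Ctrl (adjusted p 0.00566) and 0.44 ± 0.15 against OVA (adjusted p 0.0284), which passed the adjusted p and not the fold.

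RPL32, a protein of the large subunit, stood at 214, 223, 207, 172 and 175 RPKM in Ctrl and 527, 299, 287, 294 and 361 RPKM in EAE on day 14. OVA mice had 332, 204, 176, 169 and 261 RPKM, with mouse 1 inside the EAE range. RPL32 rose by 0.80 ± 0.20 on the log2 scale against Ctrl (limma adjusted p 0.00359) and 0.64 against OVA (adjusted p 0.0174), the latter lost in 3 of 10 fits without 1 mouse. RPL32L, typed as a pseudogene, was lower in level and moved the same way, with 13.9, 17.7, 15.3, 11.5 and 14.5 RPKM in Ctrl and 41.5, 27.1, 21.1, 31.3 and 30.3 RPKM in EAE. OVA mice had 22.6, 26.5, 16.1, 17.5 and 17.8 RPKM, a range that overlapped both groups. Its log2 fold change was 1.03 ± 0.17 against Ctrl (adjusted p 0.000259), the largest rise of the family, and 0.58 ± 0.17 against OVA, short of 1.5-fold.

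RPS27L, a paralogue of RPS27 known as a target of p53, had 97.5, 93.7, 85.9, 84.1 and 71.9 RPKM in Ctrl on day 14. EAE mice had 282, 146, 131, 152 and 167 RPKM, all above Ctrl, and OVA mice 135, 58.5, 73.7, 75.4 and 107 RPKM, with mouse 1 above the lowest EAE mouse. It rose by 0.97 ± 0.22 on the log2 scale against Ctrl (limma adjusted p 0.00231) and 0.97 against OVA (adjusted p 0.00286). RPS27 itself, which shares nearly all of its sequence with other genes, had a log2 fold change of 0.07 ± 0.33 against Ctrl (adjusted p 0.881). The difference between the paralogues was not tested.

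Other calls against Ctrl were smaller and less stable. RPS25, a small subunit protein that many viral internal ribosome entry sites need, rose by 0.65 on the log2 scale (limma adjusted p 0.0232), and the call was lost in 2 of the 10 fits that left out 1 mouse. RPS20 rose by 0.66 (adjusted p 0.0389, lost in 6) and RPL5 by 0.63 (adjusted p 0.0372, lost in 8). RPL5 with RPL11 and the 5S RNA forms the particle that can bind MDM2. The calls for RPL32L, RPL4, RPL32, RPS27L, RPL3L and RPS4L held in all 10 such fits against Ctrl. With median-of-ratios scaling 5 genes rose, where 11.0% of all genes did. Each was among the 9, and the calls for RPS25, RPS20 and RPL5 were lost. RPLP0, the scaffold of the stalk, passed the adjusted p and not the fold (0.46 ± 0.17, adjusted p 0.0374).

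**Figure D3:**
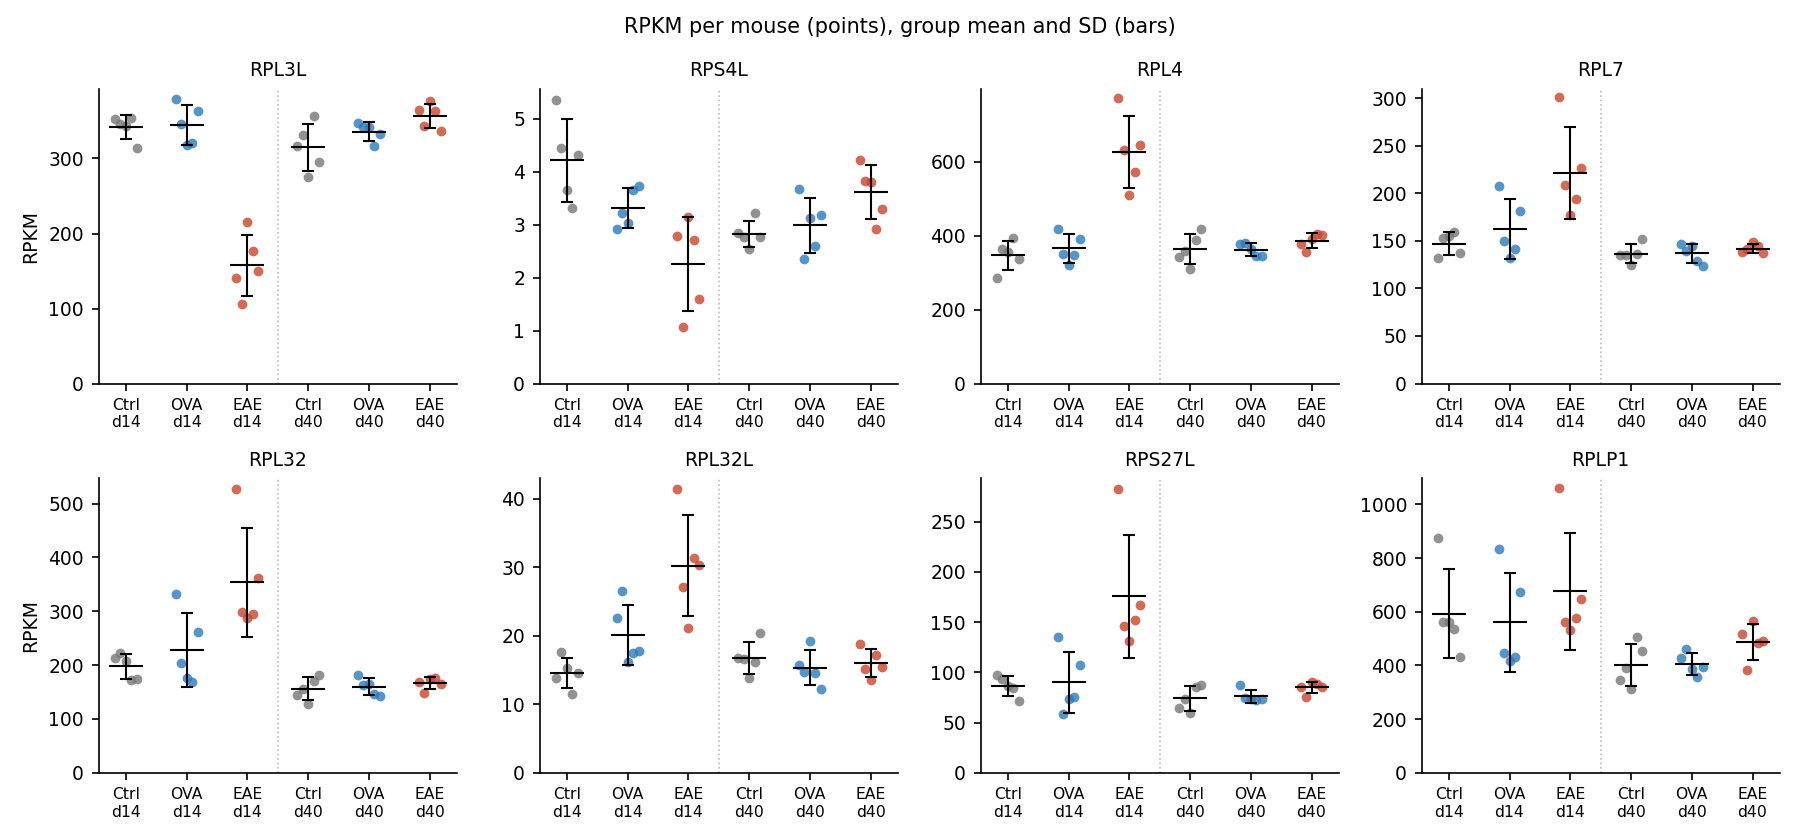
Level in RPKM (vertical axes from 0) of RPL3L, RPS4L, RPL4, RPL7, RPL32, RPL32L, RPS27L and RPLP1 in each of the 30 mice, by group, with the group mean and SD (bars). RPL3L drops to between 106 and 215 RPKM in the EAE mice of day 14, RPL4 climbs to between 511 and 773 RPKM, and RPLP1 is highest in mouse 1 of each day 14 group.

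Against OVA on day 14, 11 genes rose and 2 fell, where 11.0% and 9.28% of 8674 tested genes did, so the members' 14.9% higher was slightly above the background. Positive log2 fold changes were found in 71 of 74 genes (95.9%) against 61.1% of all genes, and the median was 0.45 against 0.11. The comparison shares the EAE mice with the one against Ctrl and is not a second sample of them. Here 3 genes were higher without overlap (18.0% of all genes), among them RPL4 and RPS4X, and 1 was lower (8.2% of all genes), RPL3L.

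RPL27 had the largest rise against OVA, with 14.2, 8.59, 6.81, 5.62 and 9.72 RPKM in EAE and 8.59, 2.58, 2.20, 2.89 and 5.50 RPKM in OVA. The groups overlapped through OVA mouse 1. The log2 fold change was 1.15 ± 0.34 (limma adjusted p 0.0137), while against Ctrl it was 0.64 ± 0.34 (adjusted p 0.125). RPL11, the partner of RPL5, had 18.9, 7.75, 10.6, 8.31 and 11.7 RPKM in EAE against 12.2, 4.52, 4.03, 6.42 and 6.45 RPKM in OVA. RPL10, which joins the large subunit late in its assembly, had 14.9, 10.2, 12.1, 6.33 and 9.38 RPKM against 11.9, 3.93, 4.90, 3.87 and 6.23 RPKM. In both genes OVA mouse 1 lay inside the EAE range.

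The call for RPL11 (0.80, limma adjusted p 0.0359) was lost in 7 of 10 fits without 1 mouse, that for RPL10 (0.85, adjusted p 0.0293) in 6 and that for RPL19 (0.63, adjusted p 0.0485) in 8. RPL5 (0.80, adjusted p 0.0142) and RPS25 (0.73, adjusted p 0.0156) were also called, and they, like RPL27, RPS27L, RPL4 and RPL3L, held in all 10 fits. The count rested on 1 mouse more than on any other. Without OVA mouse 1, whose family mean was 5.75 against 4.48 to 5.33 in its group, 36 genes rose, where 11.0% of all genes did. The 11 were all among the 36. Without mouse 1 of all 3 day 14 groups, an alternative chosen after the data were seen, 23 rose against OVA and 7 against Ctrl.

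The genes that moved least or downward on day 14 were of several kinds. Against Ctrl, after RPL3L and RPS4L, the lowest log2 fold changes were those of RPS29 (-0.32 ± 0.52, adjusted p 0.629), RPS12 (-0.27, adjusted p 0.260) and RPL37A (-0.08), none past the test. Against OVA, RPL7L1 (-0.02), RPS12 (0.03) and RPS2 (0.05) followed. The stalk protein RPLP1 had 0.18 ± 0.24 against Ctrl and RPLP2 0.31 ± 0.28, RPSA, once named the laminin receptor, had 0.36 ± 0.23 and RPS6, the substrate of the S6 kinases, had 0.45 ± 0.25. None of these 4 passed the test. For RPS6 the mice had 26.7, 17.9, 18.2, 20.4 and 10.8 RPKM in Ctrl and 34.9, 22.5, 22.5, 19.3 and 26.6 RPKM in EAE, so the groups overlapped. RPL22 had a log2 fold change of 0.37 ± 0.17 (adjusted p 0.0819) and its paralogue RPL22L1 one of 0.03 ± 0.31 (adjusted p 0.943).

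Length and shared sequence were set beside the day 14 differences. Among other genes, the median log2 fold change of EAE against Ctrl was -0.06 for transcripts under 500 bases, -0.14 from 500 to 1000 bases, -0.05 from 1000 to 2000, 0.13 from 2000 to 4000 and 0.31 above 4000 bases. The ribosomal protein genes lay above the other genes of their class in each, with 0.18 (12 genes), 0.25 (40 genes), 0.38 (17 genes), 0.50 (4 genes) and 0.39 (1 gene). With the length trend removed the medians were 0.39, 0.40, 0.41 and 0.42 in the 4 classes of more than 1 gene. Then 15 genes rose and 2 fell, where 11.1% and 13.2% of all genes did. Of the 9 genes called before, 8 were among the 15, RPS20 being the exception. Against OVA the same step gave 22 that rose, including all 11, and 1 that fell, where 8.93% and 11.2% of all genes did. The family's mean level in EAE, less the trend, ran from 5.22 to 5.55, above all Ctrl mice (4.76 to 5.11) and overlapping OVA (4.64 to 5.29). By shared sequence, 7 of the 9 genes called higher against Ctrl and both called lower shared under 20%. From least to most shared, 35.0%, 7.14% and 0.0% of the 3 classes were called higher, where 14.6% of all genes were. Their median log2 fold changes were 0.38, 0.22 and 0.30. The classes also differed in estimated reads per gene, with medians of 2831, 443 and 116. The part of read numbers in these calls was not tested.

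**Figure D4:**
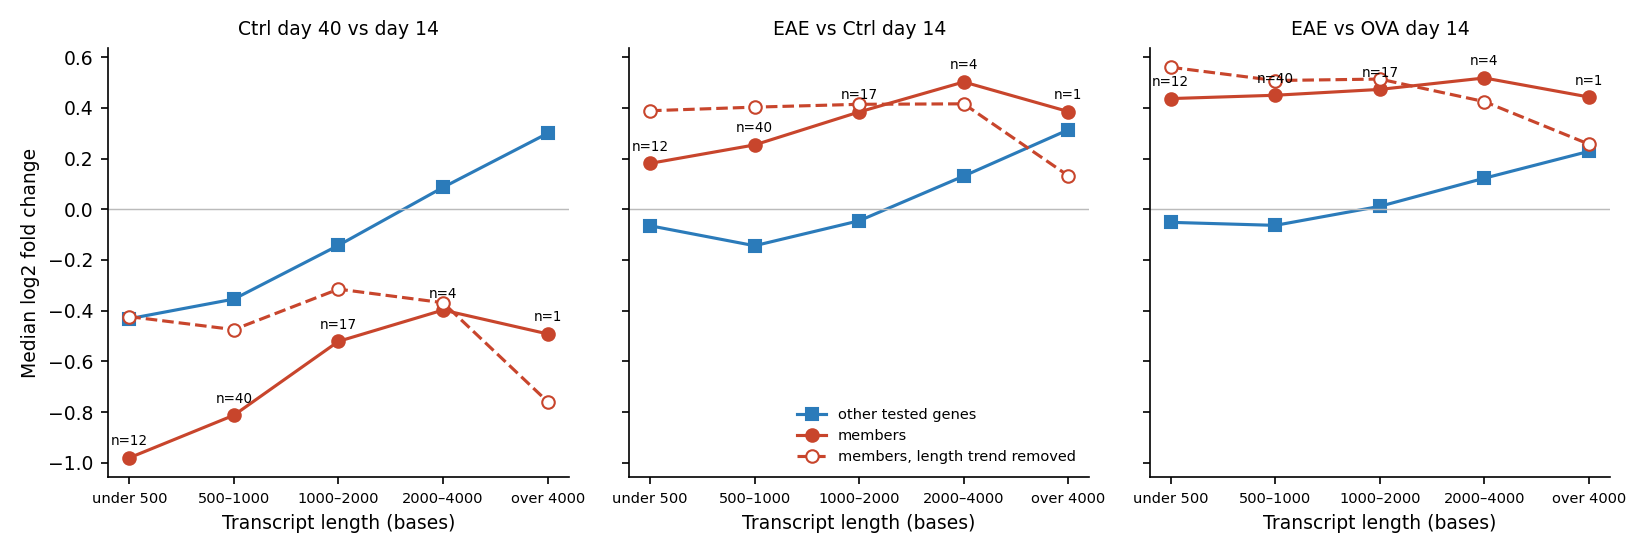
Median log2 fold change by class of transcript length (horizontal axis, bases) for the cytosolic ribosomal protein genes, the same genes after the length trend was removed, and all other genes tested, in Ctrl day 40 against day 14, EAE against Ctrl and EAE against OVA on day 14. On day 14 the ribosomal protein genes lie above the other genes in each length class, and in Ctrl from day 14 to day 40 below them.

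OVA against Ctrl on day 14 called 0 of the 74 genes in either direction by limma, where 0.0944% of 8471 genes rose and 0.0472% fell. At an unadjusted p under 0.05, 1 of 74 passed, against 9.69% of all genes. Negative log2 fold changes were found in 60 of 74 genes, against 50.9% of all genes, with a median of -0.16, all genes having a median of 0.00 to 2 decimals. Leaving out 1 mouse moved the members' median to between -0.36 (without OVA mouse 1) and -0.03 (without OVA mouse 2). RPL32L had the highest value (0.45 ± 0.17, adjusted p 0.407) and RPS29 the lowest (-0.65 ± 0.51, adjusted p 0.704). On day 40, 0 genes were called in any of the 3 comparisons, at backgrounds of 0.069% higher and 0.391% lower for EAE against Ctrl, 0.0349% and 0.174% for EAE against OVA, and 0.0% both ways for OVA against Ctrl. Between 67 and 68 of the 74 genes passed the filter there, with medians of 0.17, 0.14 and 0.03, which became 0.03, 0.05 and -0.02 with the length trend removed. In EAE against Ctrl the median was 0.22 for members and 0.17 for other genes with transcripts under 500 bases. At an unadjusted p under 0.05, 12, 4 and 1 genes passed, against 27.9%, 17.4% and 3.12% of all genes. RPL4 stood at 377, 357, 392, 404 and 403 RPKM in the EAE mice of day 40, within the 311 to 418 RPKM of the Ctrl mice of that day.

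An interaction term, fitted over all 30 mice, asked whether the EAE difference itself differed from one day to the other. For EAE against Ctrl, 8 of the 74 genes moved down from day 14 to day 40 and 2 up, against 20.9% and 11.7% of 9013 genes. The median was -0.14 for the members and -0.15 for all genes, but -0.42 and -0.02 with the length trend removed. Leaving out 1 mouse moved the members' median to between -0.27 (without Ctrl mouse 1 of day 14) and 0.00 to 2 decimals (without EAE mouse 1 of day 14). Among the 8 were RPL32L, RPL11, RPS7, RPL5, RPS27L, RPL4 and RPL32, and the 2 were RPL3L and RPS4L. For EAE against OVA, 7 moved down and 2 up, where 13.7% and 8.16% of 8935 genes did, with a median of -0.33 against -0.16. RPL11 changed most, by -1.49 (limma adjusted p 0.00213).

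The largest shift of the family lay between the days and was present without immunization. In Ctrl, 41 of 74 genes were lower on day 40 and 0 higher, where 4.35% of 8788 genes were lower and 5.02% higher. The median log2 fold change was -0.78 against 0.05. In OVA 30 were lower and 0 higher (1.71% and 2.25% of 8648 genes), with a median of -0.65 against 0.04, and in EAE 56 were lower and 2 higher (12.7% and 8.36% of 8709 genes), with a median of -1.03 against -0.11. The groups did not overlap downward for 28 genes in Ctrl (5.2% of all genes), 18 in OVA (3.89%) and 56 in EAE (21.9%). These 3 comparisons set different mice against each other and share no mouse. A gene was tested if either day averaged over 3 RPKM, which let in all 74 genes. Within day 40, 67 to 68 passed the filter. Some genes thus entered only through their day 14 level, a selection that favours falls.

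RPS29, a zinc-binding protein of the small subunit, fell furthest in Ctrl, from 21.9, 7.05, 7.76, 9.05 and 4.36 RPKM to 0.873, 2.07, 1.28, 2.14 and 2.43 RPKM, with no overlap. Its log2 fold change was -2.31 ± 0.45 (limma adjusted p 0.00140). RPS16 fell from 25.2, 14.6, 15.1, 21.1 and 9.81 RPKM to 2.29, 5.41, 4.14, 7.43 and 5.75 RPKM, a log2 fold change of -1.78 ± 0.29 (adjusted p 0.000332). RPLP2 of the stalk, among the most abundant members, fell from 394, 231, 244, 226 and 167 RPKM to 95.4, 107, 83.4, 154 and 127 RPKM, also without overlap, a log2 fold change of -1.13 ± 0.23 (adjusted p 0.00224). RPSA (-0.90 ± 0.19) and RPS6 (-0.80 ± 0.21) fell too.

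Others did not move by the test. In Ctrl, RPL4 had 0.06 ± 0.10 (limma adjusted p 0.626), RPL3L -0.12 ± 0.11 (adjusted p 0.395) and RPL7 -0.11 ± 0.11 (adjusted p 0.470). In EAE the largest falls were those of RPS7 (-2.17 ± 0.20, adjusted p 1.36e-09) and RPL11 (-2.15 ± 0.25, adjusted p 9.10e-08), while RPL3L rose by 1.21 ± 0.11 (adjusted p 1.58e-09) and RPS4L by 0.74 ± 0.19 (adjusted p 0.00246). RPS7 had 15.4, 9.37, 11.1, 8.24 and 11.5 RPKM in the EAE mice of day 14 and 2.76, 1.80, 2.29, 2.62 and 2.32 RPKM in those of day 40. The day 40 values all lay under 3 RPKM, so RPS7 passed the filter here only through day 14. RPL3L and RPS4L thus moved opposite to most of the family both in EAE against Ctrl or OVA on day 14 and in EAE between the days.

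The fall between the days varied with length and with shared sequence. In Ctrl the members' median log2 fold change was -0.98 under 500 bases, -0.81 from 500 to 1000, -0.52 from 1000 to 2000 and -0.40 from 2000 to 4000 bases, and that of other genes ran from -0.43 through -0.35 and -0.14 to 0.09, and on to 0.30 above 4000 bases. With the trend removed the members' medians were -0.42, -0.47, -0.31 and -0.37. The difference of the family's mean level went from -0.79 to -0.46 in Ctrl, from -0.64 to -0.42 in OVA and from -0.95 to -0.88 in EAE. Genes that shared under 20% of their sequence had a median of -0.37 in Ctrl with 4 of 20 lower (20.0%). The middle class had -0.79 with 17 of 28 (60.7%), and those that shared 50% or more -0.87 with 20 of 26 (76.9%). Of all genes, 4.35% were lower in Ctrl. The mitochondrial ribosomal protein genes, of which 7 of 77 shared 20% or more, had a median of -0.31 in Ctrl with 10 lower (13.0%). In EAE their median was 0.01 with 5 higher and 5 lower (6.49% each), where 8.36% and 12.7% of all genes were. The part of length and of read assignment in these differences was not tested beyond these values.

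**Figure D5:**
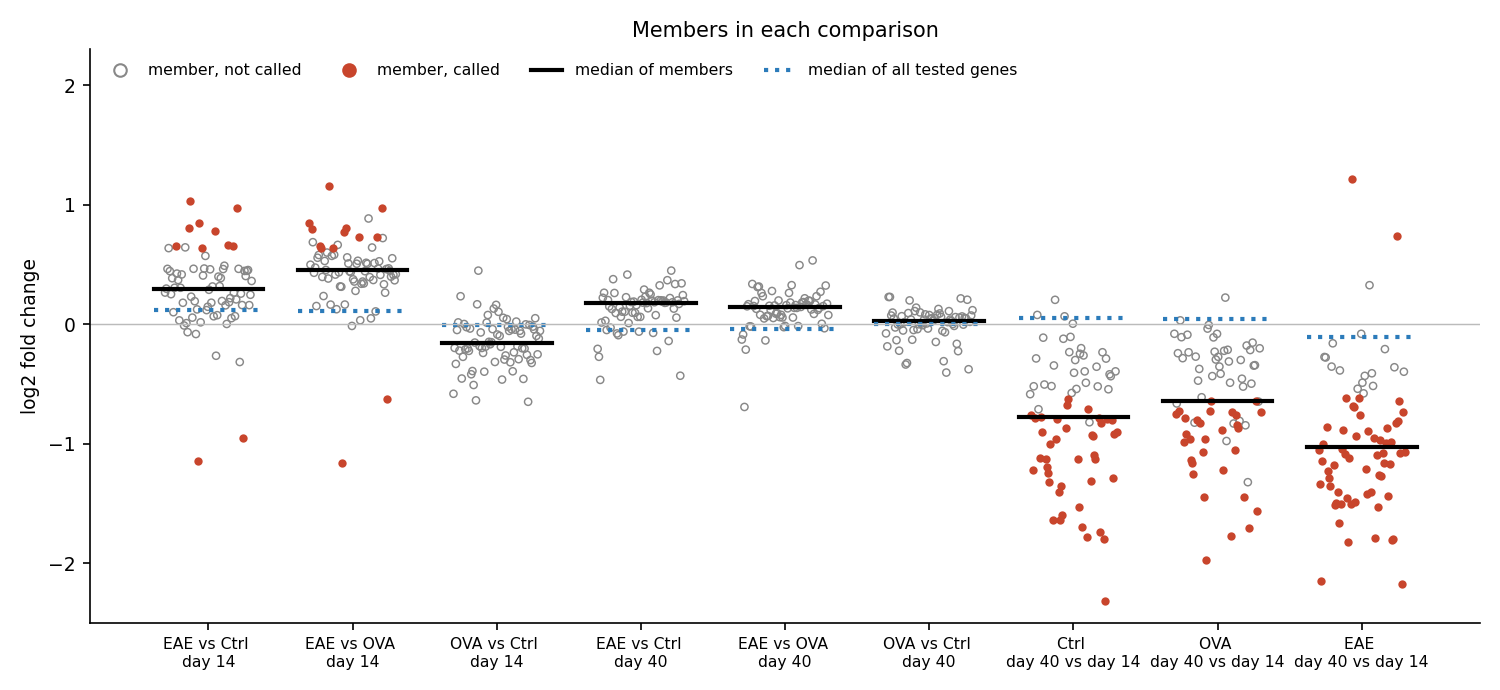
Log2 fold change of each cytosolic ribosomal protein gene (points, filled where called) in 9 comparisons, with the median of these genes and the median of all genes tested. The medians are 0.29 and 0.45 for EAE against Ctrl and OVA on day 14, 0.17, 0.14 and 0.03 on day 40, and -0.78, -0.65 and -1.03 from day 14 to day 40 in Ctrl, OVA and EAE.

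Mitochondrial ribosomal protein genes, which encode the ribosome that makes proteins of the respiratory chain, served as a second family of similar function and intermediate length (median 1280 bases). In EAE against Ctrl on day 14, 0 of 77 rose and 8 fell (10.4%, where 11.8% of all genes fell), with a median log2 fold change of -0.17, and against OVA 0 rose and 8 fell (10.4%, where 9.28% of all genes fell), with -0.19. The cytosolic family had 0.29 and 0.45 in the same comparisons. A test of the difference between the families was not run. From day 14 to day 40 the EAE difference of 17 mitochondrial genes against Ctrl rose (22.1%, where 11.7% of all genes rose) and that of 0 fell, with a median change of 0.36. Other genes of 500 to 1000 and of 1000 to 2000 bases had medians of 0.31 and 0.11 for this change. In EAE against Ctrl on day 14 those classes had -0.14 and -0.05. The part of length in the mitochondrial values was not tested.

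Other genes of the same pathway were read from lists. Of ribosome components outside the symbol pattern, such as FAU, RACK1 and RPL36AL, 4 were tested, 0 were called against Ctrl on day 14, with a median of 0.23, and 1 against OVA, the scaffold RACK1 (0.59). FAU, which encodes a ribosomal protein fused to a ubiquitin-like protein, fell from day 14 to day 40 in Ctrl by 1.34 on the log2 scale. Of 13 other TOP-type mRNAs of translation, 3 rose and 0 fell in EAE against Ctrl, where 14.6% of all genes rose and 11.8% fell, with a median of 0.40, and 3 rose against OVA, where 11.0% of all genes did, with 0.36. They were EEF2, the translocase of elongation (0.76 against Ctrl, 0.77 against OVA), EIF3E, a subunit of initiation factor eIF3 (0.73 and 0.60), and the histone chaperone NAP1L1 (0.65 and 0.89). In Ctrl between the days their median was -0.02, and 1 fell, TPT1 (-0.88). EEF1A2, the elongation factor of mature muscle, had -0.48 against Ctrl (limma adjusted p 0.00285), short of 1.5-fold.

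Of 21 tested genes of mTORC1 signalling and LARP1, 11 rose and 1 fell in EAE against Ctrl on day 14, where 14.6% of all genes rose and 11.8% fell, with a median log2 fold change of 0.69. After the length trend was removed 8 rose and 1 fell, where 11.1% and 13.2% of all genes did, with a median of 0.45. MTOR, the kinase itself, had 1.48, its inhibitor within the complex DEPTOR 1.73, the repressor of cap-dependent translation EIF4EBP1 0.81 and the helicase EIF4A1 0.78, while SESN1, an inhibitor of mTORC1, had -0.66. SESN3 and TSC1 were among those that rose, with 1.16 and 0.79. Against OVA 6 rose and 0 fell, where 11.0% and 9.28% of all genes did, among them MTOR (1.24), EIF4EBP1 (0.96) and LARP1 (0.70), with a median of 0.53. The list holds activators and inhibitors of the same kinase, and mRNA levels do not measure its activity. OVA against Ctrl called 0 of 20 genes of this list.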

How the data were processed

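Per the labels, poly(A) RNA of 30 EDL muscles (5 mice in each of 6 groups) was sequenced in paired reads. The authors aligned the reads to mm10 with Subread and counted them over RefSeq transcripts with featureCounts. The deposited values were taken not as RPKM itself but as log2(RPKM + 1), with a small constant in place of 0. Under that scale 74.4% of 15275 low values were whole reads within 0.1 reads, and 9.35% when read as RPKM. The depths behind both shares were estimated on values converted under that scale, which favours it. The shares therefore do not test one scale against the other. The deposited values were turned back to RPKM.

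Differences were tested on log2(RPKM + 0.1), a scale that understates changes of low genes, with limma 3.58.1 (R 4.3.3), with a trended variance. The 15 mice of a day entered 1 model, and all 30 entered the comparisons of the days. A gene was tested if 1 or more of the compared groups averaged over 3 RPKM. A gene was called at an adjusted p (Benjamini-Hochberg over all genes) under 0.05 and a fold above 1.5, and n was 5 mice per group. The test was checked on simulated data. Tables and figures used Python 3.11.15, numpy 2.4.6, pandas 2.3.3, scipy 1.17.1 and matplotlib 3.10.9. The length trend was a lowess fit with a span of 0.5.

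Members and gene lists were chosen with earlier results of these data known. Any member could be named, except that some genes are not reported here. Values by mouse were given for called members, the 5 highest and lowest changes, paralogue pairs, stalk genes and extremes of level and spread. Alternatives covered pseudocounts, filters, normalizations, models, membership rules, the replicate block and each mouse left out.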

Additional observations from a re-analysis of the deposited data

Results flagged for a closer look

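Of 42 groups of 5 mice examined for a mouse that stands apart, 2 were marked, and chance marks about 1 in 20 groups. RPL3L in Ctrl mouse 5 of day 14 was low at 8.30 on the log2(RPKM + 0.1) scale, with a gap of 0.732 of the group's range. RPS27L in OVA mouse 1 of day 40 was high at 6.45, with a gap of 0.878.

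The EAE to Ctrl difference changed from day 14 to day 40 in 10 members by the interaction term in limma over 30 mice. That was 13.5% of the members, below the 32.7% of 9013 genes that changed, and 9 are given here. On the log2 scale RPL3L changed by 1.33 (adjusted p 4.58e-07) and RPS4L by 1.29 (adjusted p 0.000503), upward. Downward changes included those of RPL32L by -1.09 (adjusted p 0.00026), RPL11 by -0.929 (adjusted p 0.0337), RPS7 by -0.885 (adjusted p 0.0118), RPL5 by -0.805 (adjusted p 0.0174), RPS27L by -0.752 (adjusted p 0.0154), RPL4 by -0.75 (adjusted p 0.000138) and RPL32 by -0.70 (adjusted p 0.0111).

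The EAE to OVA difference changed in 9 members by the same term. That was 12.2% of the members, below the 21.8% of 8935 genes that changed, and 8 are given here. RPL3L changed by 1.25 (adjusted p 1.25e-06) and RPS4L by 0.896 (adjusted p 0.0128). RPL11 changed by -1.49 (adjusted p 0.00213), RPL10 by -0.977 (adjusted p 0.0282), RPL12 by -0.899 (adjusted p 0.0423), RPL5 by -0.842 (adjusted p 0.0192), RPS27L by -0.808 (adjusted p 0.0143) and RPL4 by -0.678 (adjusted p 0.000537). These share the EAE mice with the first set.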

How the results depend on the processing

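No called gene changed direction under any alternative run. Of the differences of the mean level, that of EAE against Ctrl on day 40 went from 0.12 to -0.01 with the length trend removed, and that of OVA against Ctrl on day 40 (-0.01) took both signs, from -0.07 to 0.07 with a mouse left out, each within the spread between mice. Counts changed more. For EAE against Ctrl on day 14, 9 rose as given, 5 with median-of-ratios scaling (which moved the median of all genes from 0.11 to 0.02) and 15 with the length trend removed, and 2 fell as given, 1 with the floor set on deposited values or without pseudogene-typed members and 0 without L and L1 paralogues. For EAE against OVA, 11 rose as given, 7 with median-of-ratios scaling or the floor on deposited values, 22 with the length trend removed, 23 without mouse 1 of each day 14 group and 5 in members sharing under 20%, and 2 fell as given, 1 with a pseudocount of 1, without a low filter, with the trend removed, with only the compared groups, with the floor on deposited values or without pseudogene-typed members, and 0 without paralogues. In the change of EAE against Ctrl between the days, 2 went up as given and 1, 0 and 1 with that floor, without paralogues and without pseudogenes, and 8 went down as given, 5 with quantile normalization, that floor or sharing under 20% and 18 with the trend removed. In that against OVA, 2 went up as given and 1, 0 and 1 likewise, and 7 went down as given, 4 with median-of-ratios scaling, 17 with the trend removed and 3 with that floor or sharing under 20%. From day 14 to day 40 in EAE, 2 rose as given, 1 with a pseudocount of 1, that floor or no pseudogenes and 0 without paralogues, and in members sharing under 20% 12 fell (56 as given) and the mean level differed by -0.59 (-0.95 as given). In OVA 30 fell as given, 15 with only the compared groups, 17 without mouse 1 and 4 in members sharing under 20%. In Ctrl 41 fell as given and 4 in members sharing under 20%, 1 (RPL32L) rose with the trend removed, and the mean level differed by -0.79 as given, -0.46 with the trend removed and -0.41 in members sharing under 20%. Membership rules that drop members lower counts by construction, leaving 55 members with the floor on deposited values, 69 without paralogues, 71 without pseudogenes and 20 sharing under 20%. The cause of the other changes was not tested.

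With each mouse left out in turn, 5 to 10 rose in EAE against Ctrl on day 14 (5 without Ctrl mouse 5 or EAE mouse 1) and 2 fell, and 6 to 36 rose in EAE against OVA (36 without OVA mouse 1, 6 without OVA mouse 3 or 4 or EAE mouse 1) and 1 to 2 fell. The change between the days went down in 4 to 9 members against Ctrl (4 without EAE mouse 1) and 4 to 17 against OVA (17 without OVA mouse 1, 4 without EAE mouse 1). From day 14 to day 40, 51 to 59 fell and 1 to 2 rose in EAE, 11 to 35 fell in OVA (11 without OVA mouse 1, 13 without mouse 5 of day 14, 18 without mouse 4 of day 40), and 37 to 49 fell in Ctrl. The difference of the mean level ranged from 0.14 to 0.38 for EAE against Ctrl and from 0.30 to 0.63 for EAE against OVA on day 14.

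Replicate numbers appear in every group, and the labels do not say that they pair mice. Deviations of same-numbered mice correlated between -0.232 and 0.509 for EAE against Ctrl on day 14, and between 0.0255 and 0.699 for EAE against OVA (3 of 5 over 0.1), and in no comparison did all 5 pairs exceed 0.1. With the replicate block, 10 rose and 2 fell in EAE against Ctrl and 15 rose and 1 fell in EAE against OVA, where 36 passed the adjusted p alone (18 without the block). Depth limited the lowest members most, RPS29 having 23.4 estimated reads in the median mouse.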
